A study of Homo sapiens with 8 samples.

Results

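The genes described here are 10 transcripts that carry feedback on, or output of, the ERK branch of MAPK signalling in human breast cancer cells: the phosphatase genes DUSP4, DUSP5 and DUSP6, the inhibitor genes SPRY2, SPRY4, SPRED1 and SPRED2, the transcription factor genes ETV4 and ETV5, and PHLDA1. They were taken by symbol from gene tables of 61552 rows, and all 10 were among the 15923 genes with enough reads to be tested. The study profiled RNA from MDA-MB-231 and its subline LM2 after knockdown of TAF7, a subunit of the general transcription factor TFIID, in order to find genes that TAF7 regulates. Each of the 4 groups had 2 libraries, which carry the replicate numbers 2 and 3. LM2 shTAF7 cells carried a hairpin against TAF7, and LM2 control cells a control hairpin with TAF7 labelled wild type. MDA-MB-231 shTAF7 and MDA-MB-231 control cells were made with the same kinds of hairpin. MDA-MB-231 is a triple-negative breast cancer line, and LM2 is a derivative of it selected for metastasis to the lung in mice. All groups were grown in DMEM with 10% fetal bovine serum and antibiotics. The knockdown rests on a single hairpin against TAF7, the same in both lines per the labels. The labels do not say whether the cells were pools or clones, or whether replicates came from separate cultures. The p-values below therefore measure the spread between these libraries, which may be technical.

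ERK is switched on by the chain from receptor tyrosine kinases through RAS, RAF and MEK, and it raises transcription of genes that then restrain the same chain. DUSP phosphatases remove phosphate from ERK itself, while Sprouty and SPRED proteins act higher up, at the level of RAS and RAF. ETV4 and ETV5 are ETS factors of the PEA3 group and are repressed by CIC until ERK signalling relieves it, and the set as a whole is widely used as a transcript readout of ERK output.

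Libraries held 17217776 to 20292291 assigned reads, and every member was well covered, with 719 to 12386 reads in any library. TAF7 itself averaged 145 ± 4.26 counts scaled to library size (CPM) in LM2 shTAF7 and 196 ± 0.873 CPM in LM2 control libraries, and 106 ± 1.58 CPM in MDA-MB-231 shTAF7 and 182 ± 3.84 CPM in MDA-MB-231 control libraries (SD, n = 2 each). It was thus at 74.2% of control in LM2 and 58.5% of control in MDA-MB-231. The line markers VIM, CD44, KRT18, KRT8 and EGFR were present in all libraries, at 12.7 FPKM (fragments scaled to transcript length and library size) or more. Of the hormone receptor and luminal markers PGR was listed at 0 and ESR1 at 0.02 FPKM or less, while GATA3 averaged 1.52 to 2.62 FPKM and ERBB2 5.42 to 6.70 FPKM over the groups. No leukocyte, endothelial or fibroblast marker exceeded 0.88 FPKM. CPM values here are scaled with TMM factors, which were 0.935 and 0.960 in LM2 shTAF7 against 1.03 and 1.04 in LM2 control libraries, and 0.997 to 1.02 in MDA-MB-231. FPKM values carry no such scaling, so LM2 contrasts differ between these units.

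Promoter sequences help to place these genes, since CIC and AP-1, the factors through which ERK reaches many of its targets, recognise short words. Windows of 250 bases before to 50 bases after the start site came from RefSeq (GRCh38.p14). They were searched for 6 of the 10 members, some with several start sites. The search left out the chromosome that carries DUSP4, so the missing window of DUSP4 says nothing about RefSeq. The submitters' processing notes name hg19, so these coordinates belong to the RefSeq windows alone. No sequence is shown for DUSP4, DUSP5, ETV4 and ETV5. DUSP6 is shown because it held the only CIC words among the 6 members searched. The second start site of SPRED2 is shown because it held the only AP-1 word among them. PHLDA1 is shown because its transcript had the largest fall of the members in LM2. Capitals mark the matched words, and all are given 5′ to 3′ on the gene's own strand, which is the minus strand for each.
DUSP6 promoter, chr12:89352452-89352751: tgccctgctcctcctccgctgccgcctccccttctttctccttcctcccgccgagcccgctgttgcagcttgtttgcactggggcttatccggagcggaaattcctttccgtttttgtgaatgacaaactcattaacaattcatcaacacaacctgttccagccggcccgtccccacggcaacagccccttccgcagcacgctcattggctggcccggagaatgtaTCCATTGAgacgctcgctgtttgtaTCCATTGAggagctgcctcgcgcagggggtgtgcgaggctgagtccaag
SPRED2 second promoter, chr2:65366729-65367028: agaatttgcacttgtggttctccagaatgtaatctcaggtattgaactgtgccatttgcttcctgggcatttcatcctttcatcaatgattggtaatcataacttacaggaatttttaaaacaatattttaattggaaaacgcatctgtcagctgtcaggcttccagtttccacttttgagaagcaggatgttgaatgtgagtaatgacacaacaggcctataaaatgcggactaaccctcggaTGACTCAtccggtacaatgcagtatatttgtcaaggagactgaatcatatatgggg
PHLDA1 promoter, chr12:76031727-76032026: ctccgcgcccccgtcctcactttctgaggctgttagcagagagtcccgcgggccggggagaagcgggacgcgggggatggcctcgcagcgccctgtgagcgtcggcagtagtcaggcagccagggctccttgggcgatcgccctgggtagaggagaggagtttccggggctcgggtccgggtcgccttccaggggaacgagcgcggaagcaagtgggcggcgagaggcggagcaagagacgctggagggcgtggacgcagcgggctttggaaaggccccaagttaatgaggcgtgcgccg

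The words of 5 motifs were searched on both strands of each window. CIC words were TGAATGAA, TGAATGGA, TCAATGAA and TCAATGGA. DUSP6 held 2 of them, both read as TCCATTGA on its own strand, beginning 24 bases before and 1 base after the start site. At least 1 such word stood in 3.77% of all 35116 RefSeq promoter windows and at least 2 in 0.327%. The AP-1 words TGACTCA and TGAGTCA, present in 4.95% of windows, were found once, 6 bases before the second start site of SPRED2. No member window held the ETS word CCGGAAG (10.3% of windows), the CRE word TGACGTCA (1.85%) or a CArG box (1.29%). No searched word lies inside a word of another kind. A match is a string of letters and not a measured site, and a missing match says only that those letters are not in this window.

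All members were expressed well in both lines. Averaged over the 8 libraries, PHLDA1 stood at 86.8 FPKM, above 97.3% of tested genes, and ETV4, the lowest, stood at 13.3 FPKM, above 78.6% of them. PHLDA1, a pleckstrin-homology protein induced by ERK, and the 3 phosphatases made up the upper part of the range in every group. SPRED1 and ETV4 lay at or near its lower end throughout, and their ranges over replicates overlapped in both control groups and in LM2 shTAF7.

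**Figure D1:**
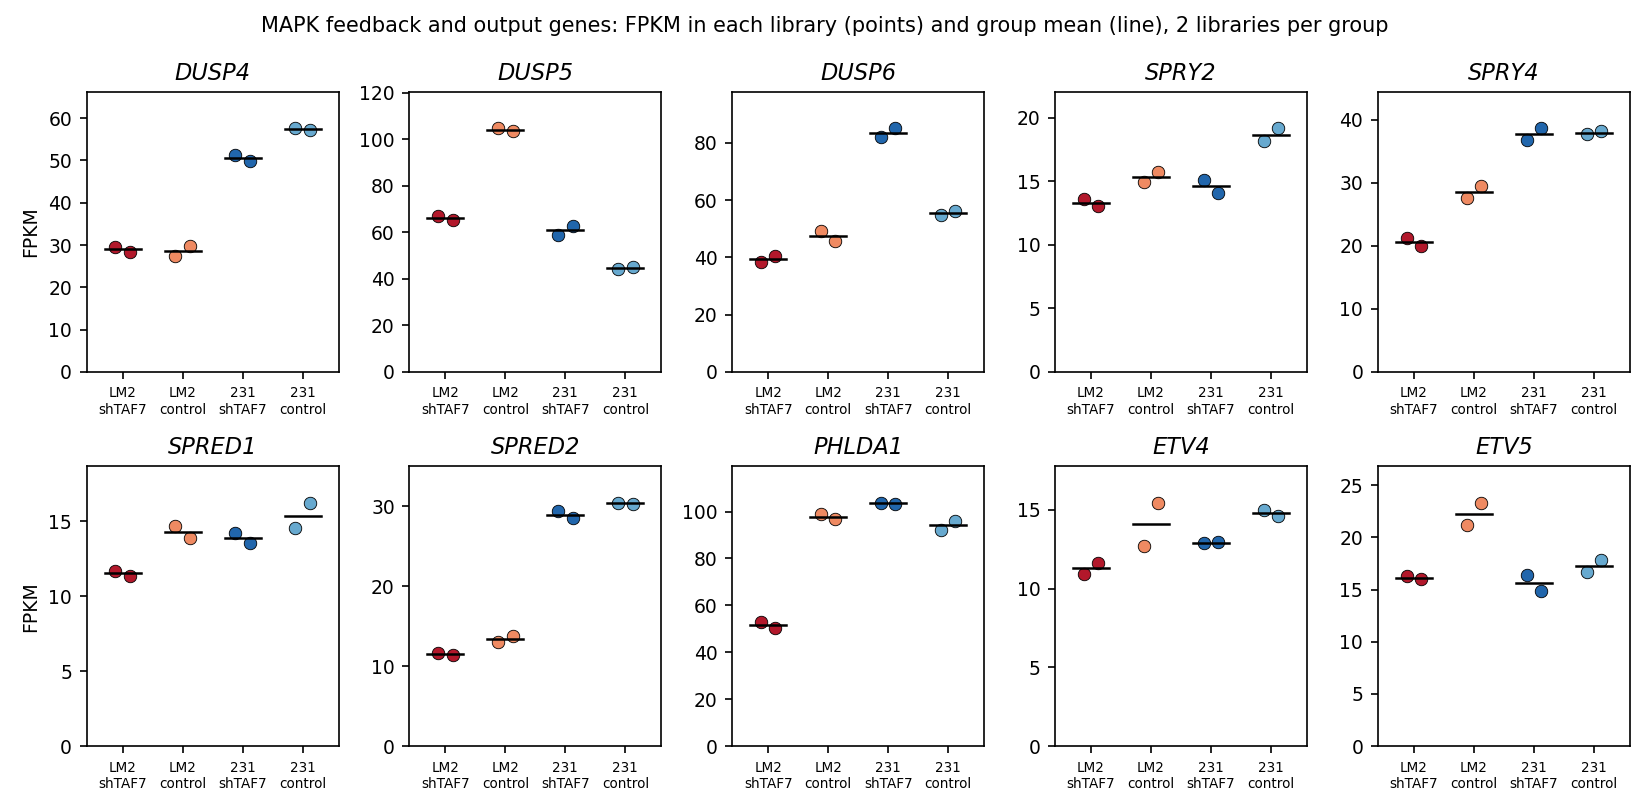
Level of each member in FPKM in every library, with 1 point per library and groups in colour. PHLDA1 and the DUSP genes have the highest mean levels in each group. SPRED2, DUSP4, DUSP5, DUSP6 and SPRY4 separate the lines with no overlap between LM2 and MDA-MB-231 libraries. The share of all tested genes that do so is not given here. Between the control groups alone, 82.6% of tested genes do not overlap in CPM.

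The order of levels differed between the lines. DUSP5 was the highest member in LM2 shTAF7 at 66.1 ± 1.14 FPKM and in LM2 control at 104 ± 0.686 FPKM, with PHLDA1 next in both. PHLDA1 was highest in MDA-MB-231 shTAF7 at 103 ± 0.361 FPKM and in MDA-MB-231 control at 94.2 ± 2.69 FPKM (SD, n = 2). In MDA-MB-231 control cells DUSP4 came second at 57.4 ± 0.184 FPKM, whereas in LM2 control cells it was level with SPRY4, at 28.6 ± 1.74 and 28.6 ± 1.30 FPKM with overlapping replicates. SPRED2 was the lowest member in LM2 control cells, within the replicate range of ETV4, and the sixth in both MDA-MB-231 groups.

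Knockdown of TAF7 in LM2 lowered 5 members and raised none at an adjusted p under 0.05 (edgeR quasi-likelihood test, Benjamini-Hochberg over all 15923 genes). PHLDA1, DUSP5, SPRY4, ETV5 and SPRED1 were lower, and DUSP4, DUSP6, SPRY2, SPRED2 and ETV4 did not pass. Over all tested genes 41.3% were called in this contrast, 21.8% higher and 19.4% lower, so 5 of 10 called is near the general share. The member median was -0.19 on the log2 scale against -0.016 for all tested genes. At an unadjusted p under 0.05, 1 member was higher (DUSP4) and 6 were lower. The share of all tested genes at that looser threshold is not given here, so these counts have no background beside them. DESeq2 called 4 lower and none higher, beside 32.7% of all genes called. With limma on log2(FPKM + 1) and log2(FPKM + 0.1), 9 members were lower and none higher, beside 37.1% and 36% of all genes called. With no filter, limma on log2(FPKM + 1) called 7 lower and none higher, beside 12.4% of all genes.

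PHLDA1 had 326 and 319 CPM in LM2 shTAF7 against 567 and 551 CPM in LM2 control libraries. Both knockdown libraries lay far below both controls, and the log2 fold change was -0.79 ± 0.07 (SE, adjusted p = 3.07e-13), which left 57.7% of the control level. DUSP5, a nuclear phosphatase specific for ERK, had 177 CPM in each LM2 shTAF7 library against 258 and 253 CPM in LM2 control libraries. Its groups were well separated and its log2 fold change was -0.53 ± 0.07 (adjusted p = 7.95e-09). SPRY4, which blocks RAS activation downstream of receptors, had 146 and 140 CPM in LM2 shTAF7 against 176 and 186 CPM in LM2 control libraries, a log2 fold change of -0.34 ± 0.07 (adjusted p = 5.97e-05). ETV5 had 98.0 and 98.8 CPM in LM2 shTAF7 against 119 and 130 CPM in LM2 control libraries, a log2 fold change of -0.34 ± 0.07 (adjusted p = 0.00017). These 4 falls kept their call under every alternative processing and with any 1 library left out.

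SPRED1, which brings neurofibromin to RAS, was the weakest of the 5, with 94.4 and 94.1 CPM in LM2 shTAF7 against 110 and 104 CPM in LM2 control libraries. Its log2 fold change was -0.18 ± 0.07 (adjusted p = 0.037). The call ended in 9 of 17 alternatives: with offsets for GC content and length (adjusted p = 0.193), with DESeq2 (0.074), with no low-count filter (0.199), with LM2 libraries alone (0.0516), and without any of MDA-MB-231 control replicate 2 (0.0569) or 3 (0.0568), LM2 control replicate 2 (0.24) and LM2 shTAF7 replicate 2 (0.0558) or 3 (0.109). ETV4 had 40.1 and 43.9 CPM in LM2 shTAF7 against 43.4 and 52.3 CPM in LM2 control libraries, the only member whose groups overlapped in this contrast. In all, 9 of 10 members had groups without overlap, against 69.4% of tested genes.

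The remaining members had small log2 differences in LM2. DUSP6, the cytoplasmic ERK phosphatase, had 155 and 167 CPM in LM2 shTAF7 against 185 and 170 CPM in LM2 control libraries. DUSP4, a nuclear phosphatase of ERK and other MAP kinases, had 224 and 222 CPM in LM2 shTAF7 against 193 and 209 CPM in LM2 control libraries. SPRY2 had 45.5 and 44.9 CPM in LM2 shTAF7 against 46.6 and 48.7 CPM in LM2 control libraries, and SPRED2 had 67.04 and 67.43 CPM in LM2 shTAF7 against 69.4 and 72.9 CPM in LM2 control libraries. Replicates of these 4 genes did not overlap between the groups, but each gap was smaller than the spread between the LM2 control libraries. DUSP6 differed by -0.14 ± 0.07 (adjusted p = 0.112), DUSP4 by 0.15 ± 0.07 (adjusted p = 0.0768), SPRY2 by -0.076 ± 0.08 (adjusted p = 0.474) and SPRED2 by -0.081 ± 0.07 (adjusted p = 0.391). On log2(FPKM + 1), which has no TMM scaling, DUSP6, SPRY2, SPRED2 and ETV4 were also called lower by limma, at -0.26, -0.19, -0.19 and -0.29, with the median of all tested genes at -0.07. DUSP4 passed as higher with GC and length offsets, at 0.21 (adjusted p = 0.00322), and with no low-count filter, at 0.18 (adjusted p = 0.0453). ETV4 passed as lower with GC and length offsets, at -0.26 (adjusted p = 0.00627), and without LM2 control replicate 2, at -0.32 (adjusted p = 0.00999). In bulk RNA, fewer cells expressing a gene and less RNA of it per cell cannot be told apart.

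In MDA-MB-231, knockdown of TAF7 raised DUSP5 and DUSP6, lowered SPRY2, and left the other 7 members short of the threshold. The background was 25.6% of tested genes called, 12.6% higher and 12.9% lower, and it fell to 13.4% without MDA-MB-231 control replicate 2, 14.4% without MDA-MB-231 control replicate 3 and 14.9% without MDA-MB-231 shTAF7 replicate 3. The member median was -0.089 on the log2 scale against 0.0081 for all tested genes. The share of members called, 3 of 10, is near that background.

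DUSP6 had 318 and 325 CPM in MDA-MB-231 shTAF7 against 207 and 214 CPM in MDA-MB-231 control libraries, a log2 fold change of 0.61 ± 0.07 (adjusted p = 2.6e-09) or 1.53-fold. DUSP5 had 150 and 158 CPM in MDA-MB-231 shTAF7 against 110 and 113 CPM in MDA-MB-231 control libraries, a log2 fold change of 0.46 ± 0.07 (adjusted p = 1.31e-06) or 1.38-fold. Both phosphatase transcripts were above control in each knockdown library with a gap several times the spread of replicates. SPRY2, a Sprouty inhibitor of receptor signalling to RAS, had 48.8 and 44.7 CPM in MDA-MB-231 shTAF7 against 57.3 and 60.8 CPM in MDA-MB-231 control libraries. Its log2 fold change was -0.34 ± 0.08 (adjusted p = 0.000956), and its groups did not overlap. These 3 calls held under every alternative and with any 1 library left out.

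SPRY4 had 242 and 251 CPM in MDA-MB-231 shTAF7 against 243 and 248 CPM in MDA-MB-231 control libraries, and its groups overlapped fully (log2 0.0063 ± 0.07, adjusted p = 0.97). ETV5 was the other member with overlapping groups, and the remaining 8 did not overlap, against 60.9% of tested genes. DUSP4 had 375 and 358 CPM in MDA-MB-231 shTAF7 against 412 CPM in each MDA-MB-231 control library, a log2 difference of -0.17 ± 0.07 (adjusted p = 0.0574). That value was called lower by 8 of 17 alternatives, among them DESeq2 (adjusted p = 0.0225). PHLDA1 had 616 and 604 CPM in MDA-MB-231 shTAF7 against 537 and 562 CPM in MDA-MB-231 control libraries, a log2 difference of 0.15 ± 0.07 (adjusted p = 0.0971). With GC and length offsets it was 0.30 (adjusted p = 0.00023). ETV4 had 45.4 and 45.1 CPM in MDA-MB-231 shTAF7 against 51.8 and 50.8 CPM in MDA-MB-231 control libraries. It differed by -0.18 ± 0.08 (adjusted p = 0.11), and by -0.32 with GC and length offsets (adjusted p = 0.00226). ETV5 had 95.1 and 85.2 CPM in MDA-MB-231 shTAF7 against 94.7 and 102 CPM in MDA-MB-231 control libraries. SPRED1 had 111 and 104 CPM in MDA-MB-231 shTAF7 against 111 and 124 CPM in MDA-MB-231 control libraries, and SPRED2 had 162 and 156 CPM in MDA-MB-231 shTAF7 against 165 CPM in each MDA-MB-231 control library. The knockdown libraries of all 3 lay close to or among the controls. SPRED1, SPRED2 and ETV5 differed by -0.13, -0.053 and -0.12, with adjusted p-values of 0.184, 0.616 and 0.225.

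**Figure D2:**
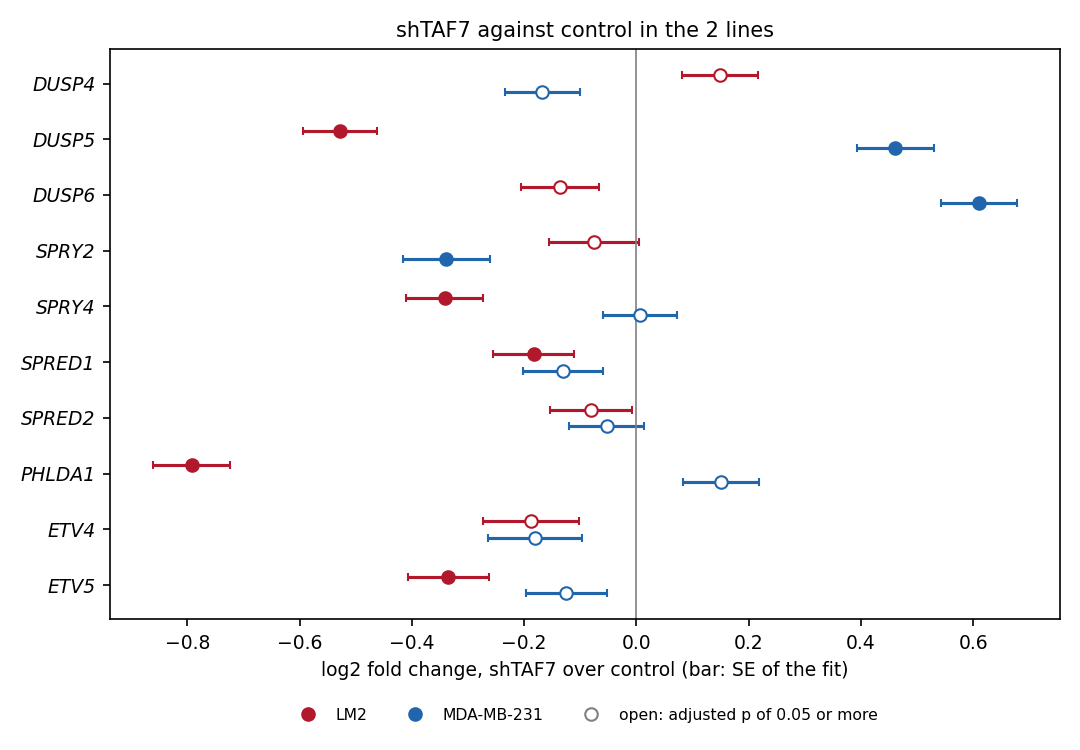
Log2 fold change of each member, shTAF7 over control, in LM2 and in MDA-MB-231, with bars for the SE of the fit and open points for adjusted p of 0.05 or more. DUSP5 lies at -0.53 in LM2 and 0.46 in MDA-MB-231, DUSP6 at -0.14 and 0.61, and PHLDA1 at -0.79 and 0.15.

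The effect of the knockdown itself differed between the lines for 5 members (test of the difference, LM2 minus MDA-MB-231, in the same edgeR model). The difference was negative for DUSP5, PHLDA1, DUSP6 and SPRY4 and positive for DUSP4. Of all tested genes 25.8% were called in this test, 13.9% positive and 11.9% negative. The member median of the difference was -0.13 against -0.0026 for all tested genes on the log2 scale.

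DUSP5 had the largest difference of the members, -0.99 ± 0.09 (adjusted p = 1.92e-11), and it passed the threshold with opposite signs in the separate contrasts. PHLDA1 differed by -0.94 ± 0.10 (adjusted p = 1.05e-10), DUSP6 by -0.75 ± 0.10 (adjusted p = 4.67e-08) and SPRY4 by -0.35 ± 0.09 (adjusted p = 0.00457). These 4 calls held under all 16 alternatives. DUSP4 differed by 0.32 ± 0.10 (adjusted p = 0.0105), with a call that ended on the FPKM scale (adjusted p = 0.0883 with limma) and without MDA-MB-231 control replicate 2 (0.0549) or 3 (0.0583) or LM2 control replicate 2 (0.0785). For SPRY2, SPRED1, SPRED2, ETV4 and ETV5 the difference did not pass, at 0.26, -0.052, -0.028, -0.0067 and -0.21. SPRY2 passed with GC and length offsets (0.28, adjusted p = 0.0371) and without MDA-MB-231 shTAF7 replicate 2 (0.33, adjusted p = 0.0357). ETV5 passed with those offsets (-0.25, adjusted p = 0.0338) and without MDA-MB-231 shTAF7 replicate 3 (-0.29, adjusted p = 0.048). TAF7 itself was lowered less in LM2, by a log2 difference of 0.34 ± 0.09 (adjusted p = 0.00544, and 0.0511 without MDA-MB-231 control replicate 3), and the part of that unequal depletion in the members' differences was not tested.

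Levels of the 3 phosphatase transcripts were also summed, since they share ERK as a substrate. Summed over DUSP4, DUSP5 and DUSP6, the libraries held 135 and 134 FPKM in LM2 shTAF7 against 181 and 179 FPKM in LM2 control cells. They held 192 and 198 FPKM in MDA-MB-231 shTAF7 against 156 and 159 FPKM in MDA-MB-231 control cells. On the TMM-scaled CPM the sums were 556 and 566 in LM2 shTAF7 against 635 and 632 in LM2 control libraries, and 843 and 841 in MDA-MB-231 shTAF7 against 729 and 739 in MDA-MB-231 control libraries. On both scales the sum was smaller with the TAF7 hairpin in LM2, with a smaller gap on CPM, and larger with it in MDA-MB-231, as a description with no test. The balance also moved: DUSP6 over DUSP4 was 1.597 and 1.707 in MDA-MB-231 shTAF7 against 0.949 and 0.978 in MDA-MB-231 control libraries. In LM2 the same ratio was 1.30 and 1.42 in shTAF7 against 1.80 and 1.53 in control libraries. DUSP5 over DUSP6 was above 1 in all LM2 libraries and below 1 in all MDA-MB-231 libraries, ranging over 1.61 to 2.28 and 0.718 to 0.810.

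**Figure D3:**
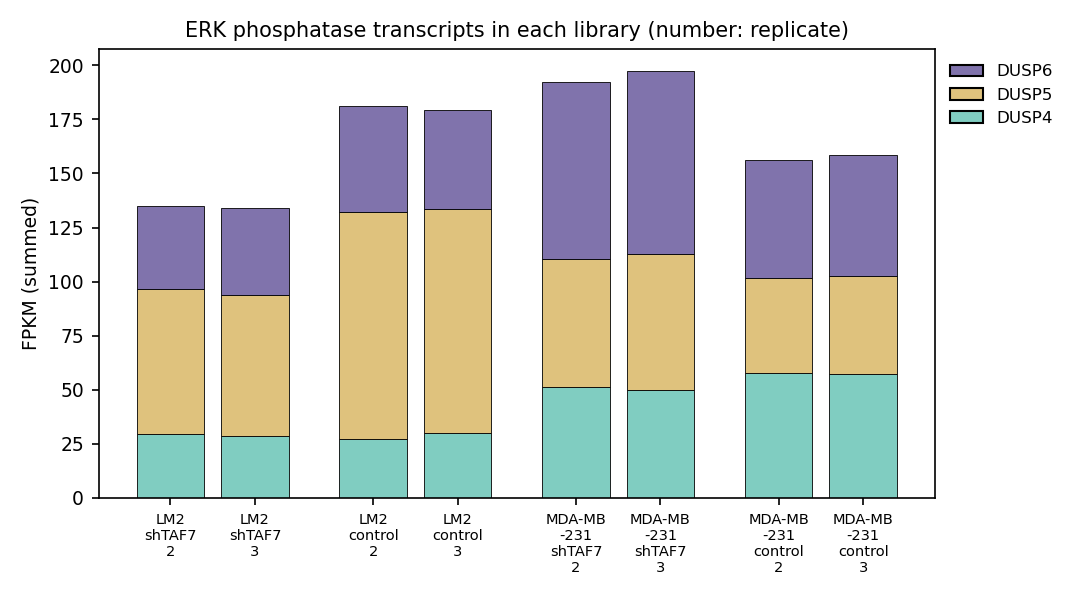
Summed FPKM of the 3 ERK phosphatase genes in each library, as stacked bars from 0. The total is 135 and 134 in LM2 shTAF7 against 181 and 179 in LM2 control libraries, and 192 and 198 in MDA-MB-231 shTAF7 against 156 and 159 in MDA-MB-231 control libraries, and the DUSP5 part is largest in LM2 control cells.

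Between the lines with the control hairpin, LM2 had less SPRED2, DUSP4, SPRY4, SPRY2 and DUSP6 transcript than MDA-MB-231 and more DUSP5 and ETV5. With 64.4% of all tested genes called (32.2% higher and 32.1% lower), 7 of 10 members called is near the background, and the member median was -0.19 on the log2 scale against 0.024 for all tested genes. Groups did not overlap for 8 of 10 members, against 82.6% of tested genes.

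SPRED2, a relative of SPRED1 that likewise restrains RAS, had 69.4 and 72.9 CPM in LM2 control against 165 CPM in each MDA-MB-231 control library, a log2 fold change of -1.21 ± 0.07 (adjusted p = 1.81e-20). DUSP4 had 193 and 209 CPM in LM2 control against 412 CPM in each MDA-MB-231 control library, a log2 fold change of -1.03 ± 0.07 (adjusted p = 2.82e-18). These levels were 43.1% and 48.9% of the parental level, with no overlap between the lines. DUSP5 went the other way, with 258 and 253 CPM in LM2 control against 110 and 113 CPM in MDA-MB-231 control libraries, a log2 fold change of 1.19 ± 0.07 (adjusted p = 1.12e-20) or 2.29-fold. ETV5 was higher in LM2 control by 0.34 ± 0.07 (adjusted p = 5.81e-05). SPRY4, SPRY2 and DUSP6 were lower by log2 values of -0.44, -0.31 and -0.25, with adjusted p-values of 1.51e-07, 0.000593 and 0.0014. SPRED1, PHLDA1 and ETV4 did not pass, at -0.13, 0.025 and -0.10. ETV4 passed as lower without LM2 control replicate 3 (-0.25, adjusted p = 0.0296) and with GC and length offsets (-0.25, adjusted p = 0.00471). SPRED1 passed as lower with MDA-MB-231 control replicate 2 left out (-0.22, adjusted p = 0.0397) and with the control libraries alone (-0.13, adjusted p = 0.0399), and PHLDA1 as higher with GC and length offsets (0.15, adjusted p = 0.0188).

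With the TAF7 hairpin in both lines, LM2 again had less SPRED2 and DUSP4, at log2 values of -1.24 ± 0.07 (adjusted p = 1.05e-20) and -0.72 ± 0.07 (adjusted p = 5.73e-13). DUSP6, SPRY4, PHLDA1 and SPRED1 were lower too. The background was 62.5% of tested genes called, 30.9% higher and 31.6% lower, beside 1 member higher and 6 lower, and 78.5% without overlap, beside 9 of 10 members. DUSP6 had 155 and 167 CPM in LM2 shTAF7 against 318 and 325 CPM in MDA-MB-231 shTAF7 libraries, a log2 fold change of -0.995 ± 0.07 (adjusted p = 1.52e-17). PHLDA1 had 326 and 319 CPM in LM2 shTAF7 against 616 and 604 CPM in MDA-MB-231 shTAF7 libraries, a log2 fold change of -0.92 ± 0.07 (adjusted p = 2.76e-16). SPRY4 differed by -0.79 ± 0.07 (adjusted p = 2.79e-14). DUSP5 was still higher in LM2 shTAF7, by 0.20 ± 0.07 (adjusted p = 0.00734), but that call ended with GC and length offsets (0.0706), on FPKM (0.0551) and without MDA-MB-231 shTAF7 replicate 2 (0.0602). The fall of SPRED1, -0.19 ± 0.07 (adjusted p = 0.0226), was lost in 4 of 17 alternatives, among them without MDA-MB-231 shTAF7 replicate 2 (0.136) and without LM2 shTAF7 replicate 3 (0.0824). ETV5, SPRY2 and ETV4 did not pass, at 0.13, -0.047 and -0.11, and ETV5 passed as higher without MDA-MB-231 shTAF7 replicate 2 (0.21, adjusted p = 0.0333).

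**Figure D4:**
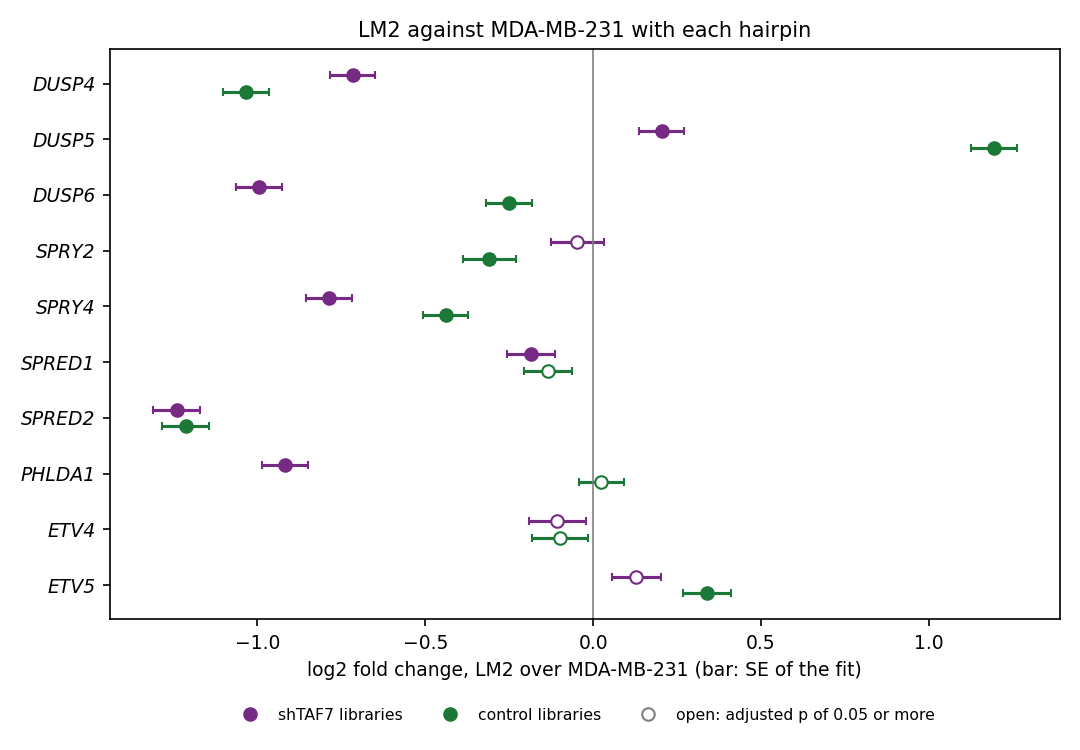
Log2 fold change of each member, LM2 over MDA-MB-231, with the TAF7 hairpin and with the control hairpin, with bars for the SE of the fit and open points for adjusted p of 0.05 or more. SPRED2 lies at -1.24 and -1.21, DUSP5 at 0.20 and 1.19 and PHLDA1 at -0.92 and 0.025.

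Over the 4 groups, the span from the highest to the lowest mean FPKM was widest for SPRED2 at 2.63-fold and narrowest for ETV4 at 1.31-fold. SPRED1 and SPRY2 were nearly as flat, at 1.34-fold and 1.40-fold. DUSP5, DUSP6, DUSP4 and PHLDA1 spanned 2.33-fold, 2.11-fold, 2.01-fold and 2.00-fold, and SPRY4 and ETV5 1.84-fold and 1.42-fold. Read counts for ETV4 are uncertain, since in GENCODE 29 the gene overlaps DHX8 on the opposite strand and the strand setting of the counts is not given in the sources used here. DHX8 had 11687 reads over all 8 libraries and at most 2158 in any library, where ETV4 had 719 to 996 per library. ETV5 overlaps DGKG on the same strand, which had 886 reads over all 8 libraries. PHLDA1 and DUSP6 overlap opposite-strand genes with at most 118 reads in all, and DUSP5 has the pseudogene copy DUSP5P1 with 89.

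The rest of the pathway was read from 7 further lists of 83 genes, chosen with earlier results of these data known, and was tested in the same fit. In LM2, knockdown lowered 4 and raised 2 of 11 other DUSP genes, lowered 5 and raised 7 of 22 genes of the chain from adaptor proteins to ERK, and lowered 5 and raised 3 of 14 other ERK output genes. Of 10 genes of the CIC and ETS list 3 fell and 2 rose, of 10 tested receptor genes 3 fell and 3 rose, and of 12 genes of the p38 and JNK arms 1 fell and 3 rose. Of the other Sprouty and SPRED genes, SPRY1 rose by 0.52 ± 0.09 (adjusted p = 4.45e-06) and SPRED3 fell by 0.38 (adjusted p = 0.0116, with the call lost in 4 of 17 alternatives) on the log2 scale, while SPRY3 was too low to test. Beside these counts stand 41.3% of all tested genes called, 21.8% higher and 19.4% lower. List medians lay between -0.01 and 0.07 on the log2 scale, beside -0.016 for all tested genes. With limma on FPKM and no filter the chain had 5 calls in place of 12. The p38 and JNK count of 4 fell to 1 without LM2 control replicate 3 or without LM2 shTAF7 replicate 2, and the Sprouty count of 2 fell to 1 without LM2 control replicate 3 or LM2 shTAF7 replicate 3.

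Within the ERK output list, IER3, LIF and EGR1 had the largest falls in LM2 among called genes of at least 5 CPM. IER3, an early-response gene, had 58.6 CPM in LM2 shTAF7 and 144 CPM in LM2 control cells on average, a log2 fold change of -1.30 ± 0.07 (adjusted p = 1.24e-19). LIF, a cytokine of the interleukin-6 family, fell by 1.18 ± 0.08 (adjusted p = 1.02e-17) and EGR1, an early zinc finger factor, by 1.10 ± 0.07 (adjusted p = 2.67e-18) on the log2 scale. PLAUR, the urokinase receptor gene, rose by 0.39 ± 0.07 (adjusted p = 9.5e-06). Among other phosphatases DUSP10 and DUSP16, which act mainly on p38 and JNK, fell by 0.78 and 0.67, while DUSP14 and DUSP7 rose by 0.52 and 0.41. NF1, the RAS GTPase-activating protein neurofibromin, fell by 0.86 ± 0.09 (adjusted p = 2.86e-10). PEBP1, an inhibitor of RAF, rose by 0.63 ± 0.07 (adjusted p = 4.56e-10). ETS1, ETS2 and ATXN1, a partner of CIC, fell by 0.62, 0.65 and 0.72. CIC itself was not called, at 0.14 ± 0.08 (adjusted p = 0.173).

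In MDA-MB-231, where 25.6% of all tested genes were called (12.6% higher and 12.9% lower), each list had fewer calls than in LM2, with no test of that difference. Knockdown lowered 9 and raised 2 of the 22 chain genes, lowered 4 and raised 3 of the 14 other output genes, lowered 4 of the 10 receptor genes and lowered 2 of the 10 genes of the CIC and ETS list. It lowered 1 and raised 1 of the other DUSP genes, and lowered 2 and raised 1 of the p38 and JNK genes. SPRY1 and SPRED3 differed by 0.071 and -0.17 (adjusted p = 0.569 and 0.419). The 11 calls of the chain and the 7 output calls were fewer without MDA-MB-231 control replicate 2, control replicate 3 or shTAF7 replicate 3. The share of all tested genes called was lower in those cases as well, and its part in the fewer list calls was not tested. The 4 receptor calls were 2 in each of those cases and the 3 p38 and JNK calls 1 in each. The 2 other DUSP calls were 1 without any 1 MDA-MB-231 library, and the 2 CIC and ETS calls were 1 without MDA-MB-231 control replicate 3. The chain also had 4 calls with GC and length offsets and 4 to 7 with limma on FPKM. Of the genes named by rule, 6 kept their call under every alternative. EGR1 fell by 0.74 ± 0.07 (adjusted p = 2.54e-11), DUSP1, the early-response MAP kinase phosphatase, by 0.70 ± 0.07 (adjusted p = 2.49e-10), EGFR by 0.44 ± 0.07 (adjusted p = 2.28e-06) and ETS1 by 0.31 ± 0.07 (adjusted p = 0.000755) on the log2 scale. PEBP1 rose by 0.44 ± 0.07 (adjusted p = 1.23e-05) and PLAUR by 0.33 ± 0.07 (adjusted p = 0.000256).

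**Figure D5:**
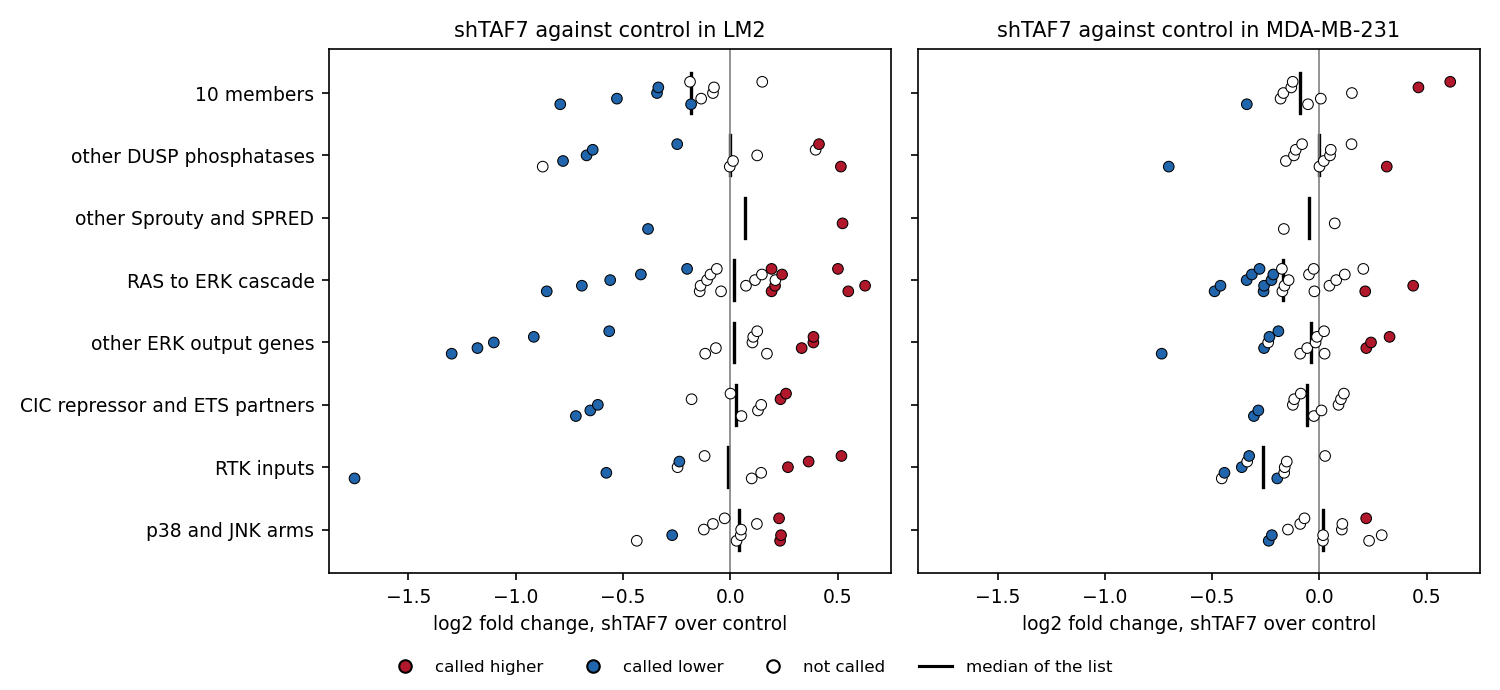
Log2 fold change, shTAF7 over control, of every tested gene in each list, in LM2 and in MDA-MB-231, with 1 point per gene. The receptor gene farthest out in LM2, PDGFRB at -1.75, had 31 and 20 reads in LM2 shTAF7 against 84 and 85 in LM2 control libraries and is named here after its values were seen.

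Genes of the lists whose knockdown effect differed between the lines under every alternative included other ERK outputs. The difference, LM2 minus MDA-MB-231, was -1.16 ± 0.10 for LIF (adjusted p = 1.11e-12), -1.04 ± 0.10 for IER3 (adjusted p = 7.01e-11) and -0.94 ± 0.10 for HBEGF (adjusted p = 8.6e-11), a ligand of EGFR. It was positive for MET, at 0.69 ± 0.10 (adjusted p = 5.91e-07), and for CCND1, the cyclin D1 gene, at 0.57 ± 0.10 (adjusted p = 1.47e-05). In all, 1 of 14 output genes differed upwards and 5 downwards, and 6 of 22 chain genes upwards and 1 downwards, against 13.9% upwards and 11.9% downwards over all tested genes. The chain had 3 calls in place of 7 without MDA-MB-231 control replicate 3, and 2 to 4 with limma on FPKM. Between control cells, LM2 had more transcript of 8 and less of 2 of the 11 other DUSP genes, with a list median of 0.68 on the log2 scale, and less of 12 and more of 4 of the 22 chain genes, with a median of -0.26. Over all tested genes 32.2% were higher and 32.1% lower in that contrast. DUSP10 was higher by 2.08 ± 0.11 (adjusted p = 1.6e-21), MYC by 2.01 ± 0.07 (adjusted p = 5.67e-29) and DUSP1 by 1.40 ± 0.07 (adjusted p = 4.91e-23). MAP2K1, which encodes the kinase MEK1, was lower by a log2 value of -1.03 ± 0.07 (adjusted p = 9.8e-18).

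To see which profiles were alike over the 8 libraries, each gene's log2 CPM was centred on its own mean and compared by root mean square difference. Among the members the closest pair was SPRY2 and SPRED1, at 0.094, followed by SPRY2 and ETV4 at 0.11, all of them flat profiles. DUSP5 and SPRED2 were farthest apart, at 0.99. DUSP5 was unlike the other DUSP members, at 0.85 from DUSP4 and 0.68 from DUSP6. DUSP4 and DUSP6 were closer, at 0.33, and SPRY4 and PHLDA1 were at 0.19. Outside the set, 10741 genes of at least 5 CPM were searched. FZD7 was closest to DUSP4 (0.037), SLC27A1 to DUSP5 (0.066), HPCAL1 to DUSP6 (0.078), S100PBP to SPRY4 (0.052), CSNK2A1 to SPRED2 (0.037), TFAP2C to PHLDA1 (0.074) and ZBTB11 to ETV5 (0.036). The flat members SPRY2, SPRED1 and ETV4 were closest to HSPA4L (0.034), B4GALT6 (0.021) and WIPF2 (0.056).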

How the data were processed

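RNA sequencing of mRNA enriched from total RNA was done on 8 libraries, 2 in each of 4 groups, per the labels' protocols. The authors deposited a table of counts per gene, whole numbers not normalised, and a table of FPKM. STAR 2.7.10a and hg19 are named in the submitters' processing notes without a role; the counter, annotation and strand setting were not stated in the sources used here. No column of per-sample values was unused (0).

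Counts were tested with edgeR 4.0.16 in R 4.3.3: default expression filter, TMM factors, a quasi-likelihood fit over all 8 libraries with 4 residual degrees of freedom, 5 contrasts, Benjamini-Hochberg adjustment over 15923 genes and a threshold of 0.05. The script was tested on simulated data. Alternatives were DESeq2 1.42.0, its size factors, GC and length offsets, no filter, fewer libraries, a replicate block, limma 3.58.1 on log2(FPKM + 1) or log2(FPKM + 0.1), and each library left out. Fold changes on log2(FPKM + pseudocount) understate the change of low genes.

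Members and lists were chosen with earlier results of these data known. All members are described; of the other lists the rule named called genes of at least 5 CPM, up to 3 per direction and comparison (147 in all), of which the text gives examples among the 98 that kept their call under every alternative, and SPRED3. CIC is given as the factor of the searched words, and PDGFRB was named after its values were seen.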

Additional observations from a re-analysis of the deposited data

Results flagged for a closer look

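The 6 transcripts given here responded to the TAF7 hairpin differently in LM2 and MDA-MB-231 by the test of the difference itself, LM2 minus MDA-MB-231, on the log2 scale. They are 5 of the 10 members and TAF7, and 25.8% of all tested genes were called in this test. The difference was -0.99 for DUSP5, which fell in LM2 and rose in MDA-MB-231. It was -0.94 for PHLDA1, -0.75 for DUSP6 and -0.35 for SPRY4. DUSP4 differed by 0.32, with a change called in neither line alone, and its call was lost in 6 of 16 alternatives. TAF7, the target of the hairpin, differed by 0.34, being lowered less in LM2, and its call was lost in 1 of 16 alternatives.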

How the results depend on the processing

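Of 840 values of member fold changes under alternatives, 751 kept their direction and their side of the threshold, 24 lost the call, 37 gained one and 28 changed sign. In MDA-MB-231 the members called after knockdown were 3, beside 25.6% of all tested genes. They were 5 with GC and length offsets (beside 21.8%), with DESeq2 (26.5%) or with the libraries of that line alone (27.3%). In LM2 the members called were 5, beside 41.3% of all tested genes. They were 9 with limma on log2(FPKM + 1) or log2(FPKM + 0.1), beside 37.1% and 36%. In these 2 settings the median of all tested genes moved to -0.07 and -0.13. With 1 library left out, the share of all tested genes called moved too, so member counts of those fits are not set out here. The cause of these moves was not tested.

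Samples of one replicate number did not deviate together: correlations of their deviations lay between -0.14 and 0.071 over 10751 genes. The numbers are used here as sample names only. Whether samples of one number shared a culture or batch cannot be told from these correlations. With a replicate block the members called stayed at 3 in MDA-MB-231, 5 in LM2 and 5 for the difference. Beside them stood 25.5%, 41.2% and 25.9% of all tested genes. Between lines the members called stayed at 7 with the control hairpin and 7 with the TAF7 hairpin, beside 64.1% and 62.2%. The receptor list in MDA-MB-231 had 2 calls in place of 4.

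All 28 sign changes were of values that passed no test in either setting; where 1 library left out changed a sign, the other end of that range is given too. After knockdown in MDA-MB-231, SPRY4 was -0.0022 with RLE size factors and DESeq2, -0.0101 and -0.0103 on FPKM, between -0.020 (without MDA-MB-231 shTAF7 replicate 3) and 0.0253 (without its replicate 2) with 1 library left out, with -0.0126 without MDA-MB-231 control replicate 2 and -0.0083 without either LM2 shTAF7 library, and GC and length offsets gave 0.0065 for SPRED1 and 0.017 for SPRED2. Between control cells SPRED1 was 0.0802 with those offsets, PHLDA1 -0.0058 with no filter and -0.0152 to 0.0495 without MDA-MB-231 control replicate 2 or 3, and ETV4 0.0286 without LM2 control replicate 2, the other end being -0.2479 without its replicate 3, which passed. Between shTAF7 cells SPRY2 was 0.0131 or -0.1105 without MDA-MB-231 shTAF7 replicate 2 or 3. In the difference between lines ETV4 was 0.0035 with RLE, 0.055 with GC and length offsets, 0.0030 with DESeq2, 0.0232 with no filter, and 0.0115, 0.0044, 0.1383 and 0.0605 without MDA-MB-231 control replicate 3, MDA-MB-231 shTAF7 replicate 2, LM2 control replicate 3 and LM2 shTAF7 replicate 2. SPRED2 was 0.0023 with no filter and 0.0084, 0.0131 and -0.0631 without MDA-MB-231 shTAF7 replicate 2, LM2 control replicate 3 and LM2 control replicate 2, and SPRED1 0.0345 without MDA-MB-231 control replicate 2. ETV4 has the highest GC content of the members (60.8%) and SPRED1 the lowest (38.9%).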
